A study of Homo sapiens with 12 samples.

Results

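Cells of U-87 MG, an established human glioma line, that carried a short hairpin RNA against p105 were compared with cells that carried a control hairpin, both after treatment with temozolomide (TMZ). The comparison rests on 6 of the 12 arrays of the series: the 3 arrays labelled shp105 and TMZ and the 3 labelled shcontrol and TMZ. TMZ, a DNA-methylating drug used against glioma, was given at 100 uM, and the labels give 16 h. The other 6 arrays hold the same lines after DMSO, the vehicle, and serve here as the background of the same hairpin comparison. Hairpins were introduced by stable transfection, so all groups carry a construct, and all were grown in the same serum-containing medium. The labels call the 3 replicates of each group biological but do not say whether they came from separate transfections, and they do not say whether each line is a clone or a pool. Each hairpin is therefore treated here as a single line, in which hairpin and line cannot be told apart. A p-value reflects no more than the spread among these arrays, which may be technical. Values are log2 expression levels from Affymetrix expression arrays, 1 probe set for each of 19775 genes. A difference is always shp105 minus shcontrol under TMZ unless DMSO is named, and n is 3 arrays a group.

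p105 is the product of NFKB1. It is processed to p50, the DNA-binding partner of RELA in the canonical NF-kB dimer, and unprocessed p105 holds other subunits in the cytoplasm as an IkB-like inhibitor. Signals from cytokine receptors and from DNA damage free the dimers, which then bind kB sites and switch on cytokines, chemokines, survival genes and the pathway's own inhibitors. Dimers of p50 alone lack an activation domain and can repress. In glioma, NF-kB activity is known for its link to the mesenchymal expression state, inflammatory secretion and survival after alkylating drugs.

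Of the 19775 genes, 4166 (21.1%) were called, that is, had an adjusted p under 0.05 in limma's moderated test with Benjamini-Hochberg adjustment over all genes. Higher in shp105 cells were 1993 (10.1%) and lower were 2173 (11%), and 346 (1.75%) were called with at least a 2-fold difference. The median difference of all genes was -0.01. Under DMSO the same comparison called 3937 genes (19.9%), 1650 higher (8.34%) and 2287 lower (11.6%). These shares are the background for every count of a gene group. Technical controls separated the arrays of both lines as well: the spike-in transcripts added before hybridization averaged 11.43, 11.36 and 11.18 on the shp105 arrays and 10.84, 11.01 and 10.997 on the shcontrol arrays, without overlap. The excess of 3' over 5' signal, a sign of RNA quality, was 0.44, 0.38 and 0.37 for GAPDH against 0.32, 0.31 and 0.27, and 3.15, 3.01 and 3.01 for ACTB against 2.94, 2.78 and 2.83. Their part in the differences was not tested beyond a fit that took this spike-in level for a covariate, in which 1045 genes were called. The adjusted p of that fit is given below as the spike-adjusted p wherever it ended a call. Because this level separated the lines, that fit cannot tell its part from that of the line. It also widened standard errors, for NFKB1 from 0.07 to 0.13. A call could end where the difference shrank, as for NFKB1 (-0.25 to -0.18), or where it did not, as for CCL20 (-1.13 to -1.19). Where the probe sets of a gene lay on both sides of 0, the number on the side of the stated difference follows its p. After the counts of a gene group, parentheses give the spike-adjusted counts of higher and lower genes, in that order. Where a count moved by over 1.5 times, they also give that of a fit on the 6 TMZ arrays alone (TMZ-only), that by averaging each gene's probe sets (probe-set mean), and that without 1 array. Over all genes, the spike-adjusted fit called 550 higher and 495 lower, the TMZ-only fit 1547 and 1600, and the probe-set mean 1796 and 1948. Control probe sets (27) for sequences that the cells lack read between 2.33 and 4.30, and a level in that range is called background here.

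Of 18 astrocyte and glioma markers 3 were higher and 2 lower (spike-adjusted 3 and 1), at mean levels of 6.88 to 6.93 on the shp105 arrays and 6.65 to 6.66 on the shcontrol arrays. The intermediate filament gene VIM stood at 14.73 in shp105 and 14.81 in shcontrol cells, the hyaluronan receptor CD44 at 12.63 and 12.95, the matrix protein TNC at 11.53 and 11.54, and EGFR at 9.37 and 9.27. The astrocyte gap junction gene GJA1 read 11.21 and 10.64 and the glutamate transporter SLC1A3 7.72 and 8.31, whereas the astrocyte filament GFAP read 5.21 and 5.05, and S100B, AQP4, PDGFRA, PROM1 and FABP7 were within background in both groups. Among the 20 leukocyte markers 1 was higher and 2 were lower (spike-adjusted 0 and 1, TMZ-only 1 lower, by probe-set mean 0 higher, 1 lower without shcontrol replicate 3), the defining gene PTPRC read 2.92 and 3.23, and the mean level of the list was 4.50 to 4.55 on the shp105 arrays and 4.53 to 4.62 on the shcontrol arrays. Of 14 endothelial markers 1 was higher and 0 lower by limma (1 at an unadjusted p under 0.05, spike-adjusted 1 and 0, 1 lower without shp105 replicate 3), and the mean level was 4.52 to 4.68 against 4.54 to 4.59. The higher one was the receptor TEK, at 5.83 and 4.29, a difference of 1.54 with the shcontrol level within background. CDH5 stood at 3.20 and 3.39, FLT1 at 7.19 and 7.12 and PECAM1 at 5.81 and 5.87. The 16 neuronal markers had 0 higher (1 at an unadjusted p under 0.05 in limma) and 2 lower members (spike-adjusted 0 and 0, by probe-set mean 2 higher) and a mean level of 5.70 to 5.75 against 5.74 to 5.79. DCX and NEFL were among 7 members within background, and the tubulin TUBB3 stood at 12.67 and 12.64, MAP2 at 8.63 and 8.58 and SNAP25 at 8.38 and 8.76. The 18 epithelial markers had 2 higher and 1 lower (spike-adjusted 2 and 0, 0 lower without shp105 replicates 1 or 2), a mean level of 4.65 to 4.69 against 4.51 to 4.60, and CDH1 at 3.49 and 3.29. The 13 fibroblast markers had 4 higher and 3 lower members (spike-adjusted 1 and 1) and a mean level of 5.84 to 5.88 against 5.92 to 5.96, with POSTN and PDGFRA among 4 members within background and FAP at 9.70 and 9.60. Of the lower fibroblast markers, COL3A1 was within background in both groups, and the glycoprotein podoplanin, PDPN, read 4.86, 4.92 and 4.33 against 7.25, 7.27 and 7.32, 5.96-fold lower at -2.57 (SE 0.14, adjusted p = 1.39e-07, 3 of 4 probe sets).

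NFKB1, the gene the hairpin targets, read 7.14, 7.22 and 7.14 on the shp105 arrays and 7.50, 7.45 and 7.30 on the shcontrol arrays. All 3 shp105 values lay below all 3 shcontrol values. Groups without overlap, in either direction, were found for 7060 of all 19775 genes. The difference was -0.25 (SE 0.07, adjusted p = 0.0204), a level 1.19-fold lower, from the single probe set of the gene. That call was lost without shp105 replicate 1 (adjusted p = 0.0600) or 3 (0.0585), without shcontrol replicate 1 (0.0903) or 2 (0.0684), with only the 6 TMZ arrays in the fit (0.0558) and after spike adjustment (-0.18, adjusted p = 0.565). Under DMSO the difference was -0.12 and was not called. The position that the hairpin targets is not given in the labels, and protein was not measured here. In RNA from whole cultures, less RNA in each cell and fewer cells that express a gene cannot be told apart.

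The NF-kB subunits and the IkB proteins that hold them were lower or uncalled: of 10 measured genes 4 were lower by limma, 0 were higher (0 at an unadjusted p under 0.05, spike-adjusted 0 and 2) and 6 were not called, at differences from -0.21 to 0.21. NFKBIZ, a nuclear IkB protein that is needed for a subset of secondary NF-kB targets, read 7.98, 7.74 and 7.84 in shp105 cells and 9.34, 9.25 and 9.32 in shcontrol cells. Its groups were far apart, and the difference was -1.45 (SE 0.07, adjusted p = 6.38e-08). NFKBIA, the canonical inhibitor and itself an NF-kB target, read 9.16, 8.91 and 9.19 against 9.80, 9.95 and 9.84, a difference of -0.78 (SE 0.10, adjusted p = 0.000184, 1 of 2 probe sets). RELB, the subunit of the non-canonical dimer, read 6.01, 6.06 and 6.20 against 6.58, 6.45 and 6.74, a difference of -0.50 (SE 0.10, adjusted p = 0.00375, spike-adjusted p = 0.317). RELA, which activates transcription in the canonical dimer, was not called at -0.15 (adjusted p = 0.0612), and neither was NFKB2 at -0.21 or REL at -0.08. The median of the list was -0.18. Under DMSO 3 were lower and 0 higher.

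Upstream of the subunits, 2 of 20 kinases and adaptors were higher and 4 were lower (spike-adjusted 1 and 2), with a median of -0.03. MAP3K14, the kinase that starts the non-canonical branch, read 7.31, 7.34 and 7.22 against 6.57, 6.64 and 6.57 and was higher by 0.70 (SE 0.05, adjusted p = 1.43e-06). The tumour necrosis factor receptor TNFRSF1A was higher by 0.32 (SE 0.08, adjusted p = 0.0103, spike-adjusted p = 0.507). Among the lower members were adaptors that link receptors to the kinase complex, TRAF5 at -0.85 (SE 0.08, adjusted p = 1.92e-05, 1 of 2 probe sets) and TRAF6 at -0.31 (SE 0.07, adjusted p = 0.00570, spike-adjusted p = 0.195). IRAK2, a kinase of interleukin-1 receptor signalling, was lower at -0.65 (SE 0.08, adjusted p = 7.17e-05, 2 of 3 probe sets). Another 14 of the 20 genes were not called. Of the kinase complex itself, the catalytic CHUK was lower at -0.33 (SE 0.08, adjusted p = 0.0129, spike-adjusted p = 0.353), a call that was lost without shp105 replicate 2 (adjusted p = 0.0502), and the catalytic IKBKB at 0.15 and the scaffold IKBKG at -0.04 were not called. Among 15 feedback inhibitors and survival genes that NF-kB induces, 6 were lower and 1 was higher (spike-adjusted 1 and 2, 2 higher without shp105 replicate 3), with a median of -0.19. The survival gene IER3 read 10.16, 10.30 and 10.31 against 11.003, 11.03 and 10.96, a difference of -0.74 (SE 0.06, adjusted p = 6.99e-06). TNIP1, a partner of the deubiquitinase TNFAIP3, was lower at -0.57 (SE 0.06, adjusted p = 1.69e-05), and the mitochondrial superoxide dismutase SOD2 at -0.47 (SE 0.08, adjusted p = 0.00132, spike-adjusted p = 0.0507). The single higher member was GADD45B, a stress-induced signalling protein, at 8.15, 8.06 and 8.23 against 7.47, 7.48 and 7.32, a difference of 0.72 (SE 0.07, adjusted p = 1.99e-05). TNFAIP3 itself was not called at 0.09.

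Chemokines, several of them NF-kB targets, held some of the largest differences of these lists. Of 18 chemokines 6 were lower, 1 was higher and 11 were not called (-0.24 to 0.21, spike-adjusted 1 and 3), and 7 of the 18 were within background in both groups. CXCL14, a chemokine of epithelia, fell from 8.03, 8.23 and 8.27 in shcontrol cells to 4.46, 4.61 and 4.36 in shp105 cells, a 13-fold difference of -3.70 (SE 0.08, adjusted p = 6.79e-11). Its fold rests on shp105 values just above background. CXCL8, the neutrophil attractant interleukin-8, read 7.21, 6.81 and 7.28 against 9.28, 9.17 and 9.21, 4.35-fold lower at -2.12 (SE 0.12, adjusted p = 1.89e-07). CXCL2, another neutrophil attractant, read 7.09, 7.16 and 7.20 against 8.10, 8.03 and 8.14, a difference of -0.94 (SE 0.07, adjusted p = 2.01e-06), and all 3 of its probe sets were lower. CCL20, which attracts lymphocytes and dendritic cells, read 4.45, 3.88 and 4.71 against 5.30, 5.80 and 5.35, and differed by -1.13 (SE 0.19, adjusted p = 0.00116, spike-adjusted p = 0.115). CCL26, an eosinophil attractant, was the single higher chemokine at 6.59, 6.44 and 6.68 against 5.40, 5.35 and 5.24, a difference of 1.24 (SE 0.08, adjusted p = 7.28e-07). Within each of these 5 genes the 2 groups of arrays did not overlap, as was the case for 7060 of all 19775 genes. CXCL1, a close relative of CXCL2, was within background in both groups and differed by 0.0004. The median of the list was -0.09.

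In the interleukin-1 system 5 of 15 genes were lower and 1 was higher (spike-adjusted 0 and 4, by probe-set mean 2 higher, 0 higher without shp105 replicates 1 or 2 or shcontrol replicates 1, 2 or 3). The cytokine IL1B read 7.51, 7.70 and 7.46 in shp105 cells and 10.50, 10.61 and 10.56 in shcontrol cells, 8.0-fold lower at -3.00 (SE 0.07, adjusted p = 1.57e-10). Its receptor IL1R1 read 5.69, 5.99 and 5.69 against 6.91, 6.88 and 6.91, a difference of -1.11 (SE 0.09, adjusted p = 2.69e-06). Parts of the inflammasomes that activate the caspase for IL1B were lower too: the sensor NLRP3 read 4.91, 4.94 and 4.86 against 6.55, 6.70 and 6.64, a difference of -1.73 (SE 0.07, adjusted p = 1.88e-08), and the DNA sensor AIM2 read 8.17, 8.21 and 8.10 against 9.11, 9.29 and 9.03, a difference of -0.98 (SE 0.07, adjusted p = 1.59e-06). The caspase CASP1 differed by -0.46 (adjusted p = 0.000122), a call that was lost in the spike-adjusted fit. The second agonist, IL1A, was not called at 0.15, and neither was the antagonist IL1RN at 0.05. The median of the list was -0.04.

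Of 16 genes of the IL6 family and the colony-stimulating factors 4 were higher and 4 lower (spike-adjusted 3 and 3). Of the ligands, the granulocyte factor CSF3 read 6.19, 6.14 and 6.33 against 8.59, 8.54 and 8.60, 5.11-fold lower at -2.35 (SE 0.09, adjusted p = 4.92e-09), LIF read 8.35, 8.39 and 8.46 against 9.47, 9.50 and 9.54, a difference of -1.10 (SE 0.05, adjusted p = 2.45e-08). IL6 read 6.63, 6.41 and 6.29 against 7.43, 7.45 and 7.51, a difference of -1.02 (SE 0.10, adjusted p = 2.26e-05). IL6R, the receptor chain that binds IL6, was higher at 7.16, 7.51 and 7.30 against 6.31, 6.41 and 6.02, a difference of 1.08 (SE 0.12, adjusted p = 4.01e-05, 2 of 3 probe sets). STAT3, the transcription factor that the shared receptor activates, was higher by 0.52 (SE 0.04, adjusted p = 6.14e-06), at 9.95, 9.95 and 9.94 against 9.42, 9.42 and 9.43. The macrophage factor CSF1 was higher, by 0.73 (SE 0.06, adjusted p = 4.46e-06), and the oncostatin receptor chain OSMR was lower at -0.23 (SE 0.05, adjusted p = 0.00718, spike-adjusted p = 0.516). The median was -0.01. Among 17 genes of prostaglandin synthesis and reception 2 were higher and 3 lower (spike-adjusted 2 and 1). PTGS2, the inducible cyclooxygenase, read 5.19, 5.31 and 5.63 against 6.88, 6.95 and 6.98, a difference of -1.56 (SE 0.13, adjusted p = 5.28e-06). PTGES, the synthase that takes its product to prostaglandin E, was higher at 9.61, 9.74 and 9.81 against 9.11, 9.11 and 9.10, a difference of 0.61 (SE 0.06, adjusted p = 1.38e-05). The receptor PTGER2 was lower at -0.45 (SE 0.09, adjusted p = 0.00274, spike-adjusted p = 0.155).

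**Figure D1:**
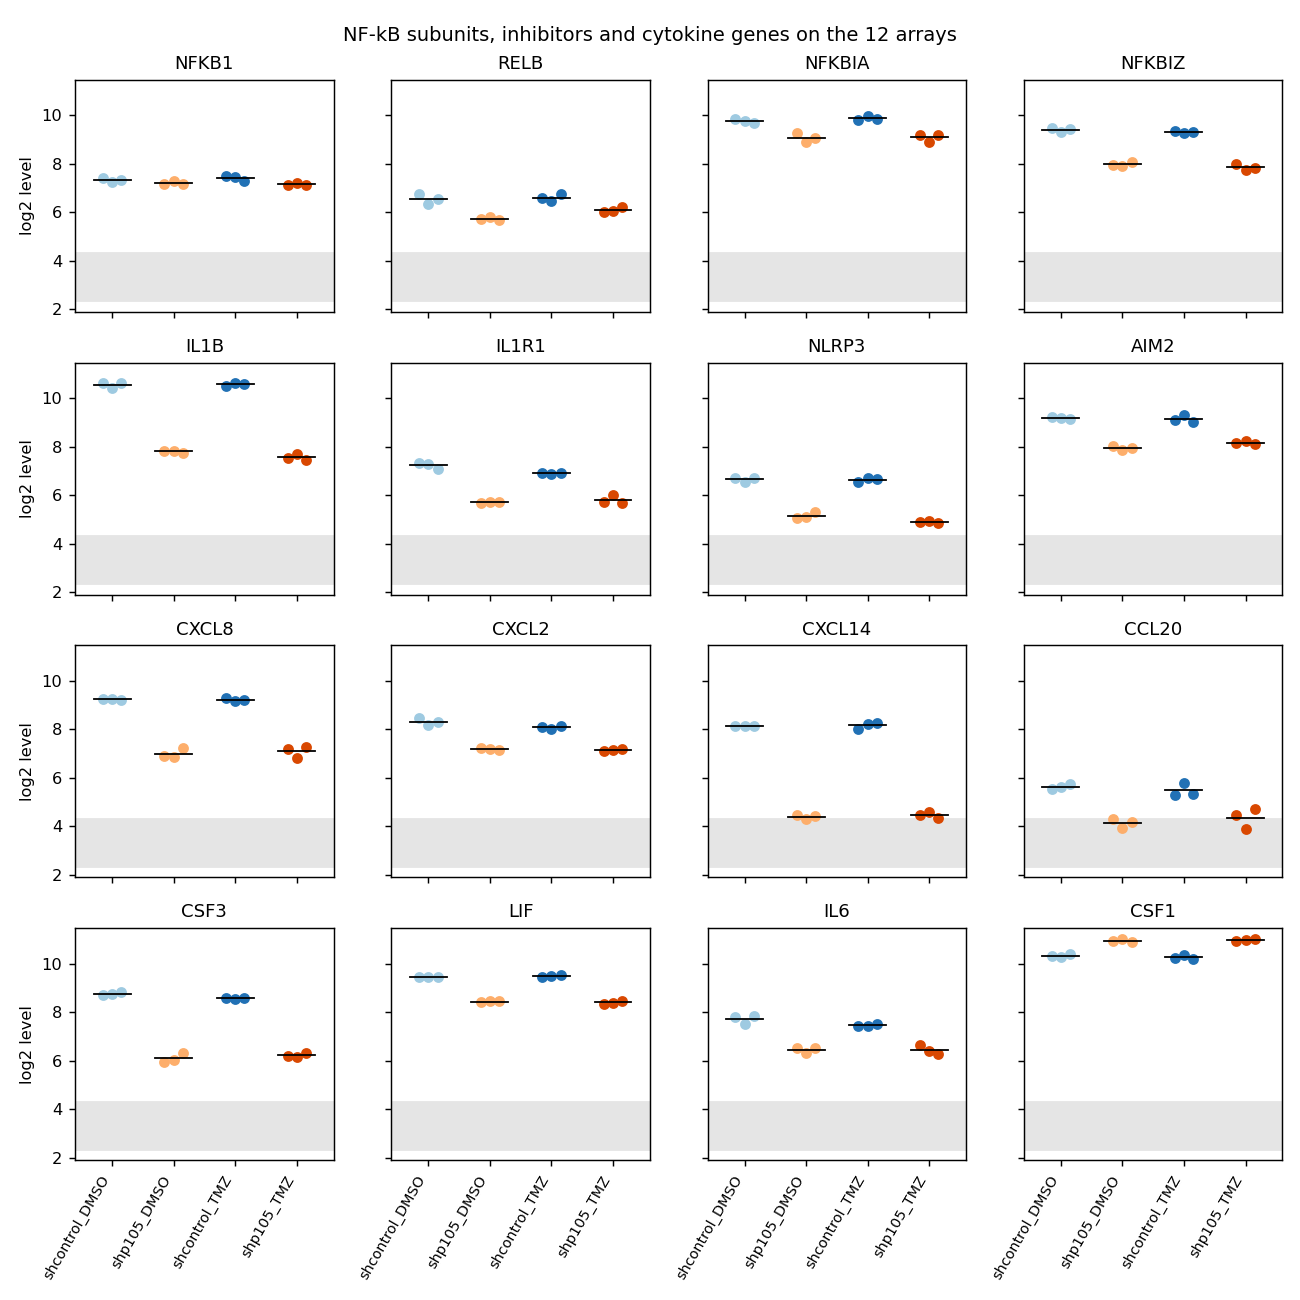
Log2 expression (vertical axis) on each array (points) of NFKB1 and 15 other NF-kB pathway and cytokine genes, by group under DMSO and TMZ (horizontal positions). Black lines are means of 3 arrays and the grey band is the range of probe sets for absent sequences. NFKB1 reads 7.14 to 7.22 against 7.30 to 7.50 under TMZ, whereas IL1B reads 7.46 to 7.70 in shp105 cells and 10.50 to 10.61 in shcontrol cells under TMZ.

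Promoter sequences of these genes show which of them carry a kB-type sequence next to the start of transcription. The 250 bases before each RefSeq start site (build GRCh38.p14) were searched on both strands for GGNNNTTCC, a core of the kB motif. The 6 genes shown are the targeted gene, the inhibitor NFKBIA and 4 lower cytokines, because they were lower together in shp105 cells. Each window is written 5' to 3' on the strand of the gene with matches in capitals. The windows are NFKB1 at chr4:102501109-102501358 (plus strand), NFKBIA at chr14:35404750-35404999 (minus strand), CXCL8 at chr4:73740319-73740568 (plus strand), CXCL2 at chr4:74099196-74099445 (minus strand), IL6 at chr7:22726950-22727199 (plus strand) and IL1B at chr2:112836780-112837029 (minus strand).
NFKB1: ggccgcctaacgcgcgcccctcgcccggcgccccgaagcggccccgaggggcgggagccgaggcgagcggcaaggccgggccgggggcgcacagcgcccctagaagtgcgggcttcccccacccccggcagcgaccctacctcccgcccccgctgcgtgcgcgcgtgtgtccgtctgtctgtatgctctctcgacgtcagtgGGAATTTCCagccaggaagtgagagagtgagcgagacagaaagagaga
NFKBIA: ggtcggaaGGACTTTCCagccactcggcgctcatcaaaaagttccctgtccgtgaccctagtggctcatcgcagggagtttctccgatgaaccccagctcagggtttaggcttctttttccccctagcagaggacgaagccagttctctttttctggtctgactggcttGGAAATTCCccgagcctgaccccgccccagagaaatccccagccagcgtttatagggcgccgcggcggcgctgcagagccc
CXCL8: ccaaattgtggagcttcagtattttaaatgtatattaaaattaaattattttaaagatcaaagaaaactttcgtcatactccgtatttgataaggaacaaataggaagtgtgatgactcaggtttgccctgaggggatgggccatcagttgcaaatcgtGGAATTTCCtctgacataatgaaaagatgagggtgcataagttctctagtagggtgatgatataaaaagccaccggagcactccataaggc
CXCL2: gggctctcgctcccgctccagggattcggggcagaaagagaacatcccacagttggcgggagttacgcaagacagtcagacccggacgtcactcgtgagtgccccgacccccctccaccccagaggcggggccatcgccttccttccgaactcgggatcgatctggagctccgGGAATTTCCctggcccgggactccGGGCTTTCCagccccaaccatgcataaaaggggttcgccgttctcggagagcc
IL6: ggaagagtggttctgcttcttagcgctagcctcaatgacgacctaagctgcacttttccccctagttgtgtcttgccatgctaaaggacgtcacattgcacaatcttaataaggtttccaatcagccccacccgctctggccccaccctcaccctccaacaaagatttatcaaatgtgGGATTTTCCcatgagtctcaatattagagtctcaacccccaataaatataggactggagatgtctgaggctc
IL1B: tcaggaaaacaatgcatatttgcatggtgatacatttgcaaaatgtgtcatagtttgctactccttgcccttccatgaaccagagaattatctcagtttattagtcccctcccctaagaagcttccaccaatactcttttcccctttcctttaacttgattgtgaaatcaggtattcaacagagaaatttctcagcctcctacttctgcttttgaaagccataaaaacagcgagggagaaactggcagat
NFKBIA and CXCL2 held 2 matches each, NFKB1, CXCL8 and IL6 held 1 each, and the IL1B window held none of these letters. The second RefSeq start of NFKB1 had no match either. Of the 74 measured members of the NF-kB subunit, feedback, chemokine, interleukin-1 and IL6 lists, 59 had a promoter in the table, with 99 promoters in all. A match stood in 13 of 35 promoters of lower members (37.1%), in 1 of 5 promoters of higher members and in 20 of 59 promoters of members that were not called (33.9%). Counted by gene, 12 of 19 lower members (63.2%) and 18 of 35 uncalled members (51.4%) had a match in some promoter. Of all 35116 promoters listed, 6012 (17.1%) held one. CXCL1, which was not called, held 2 matches in its window. A match is a description of the letters and does not show binding.

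Several genes outside the NF-kB lists differed by more than most members of those lists. UCA1, a long noncoding RNA first described in bladder cancer, read 11.49, 11.75 and 11.54 in shp105 cells and 4.11, 4.53 and 4.44 in shcontrol cells, 150.3-fold higher at 7.23 (SE 0.13, adjusted p = 1.48e-11). LIMCH1, an activator of nonmuscle myosin, read 9.15, 9.01 and 9.21 against 3.84, 3.51 and 3.58, a difference of 5.48 (SE 0.10, adjusted p = 1.48e-11). The transcription factor SOX4 read 8.74, 8.77 and 8.97 against 3.01, 2.73 and 3.14, a difference of 5.87 (SE 0.11, adjusted p = 1.53e-11), and the mesenchymal cadherin CDH11 read 8.67, 8.69 and 8.62 against 3.66, 3.44 and 3.20, a difference of 5.23 (SE 0.10, adjusted p = 2.58e-11). SOX4, LIMCH1 and CDH11 were within background in shcontrol cells. UCA1 was close to background there, with its value of 4.11 inside that range. The folds of these genes, that of UCA1 included, depend on the level of that background. All 6 probe sets of SOX4 and all 4 each of LIMCH1 and CDH11 were higher. NMU, a neuropeptide gene, read 8.92, 8.86 and 8.91 against 4.57, 4.51 and 4.36, a difference of 4.42 (SE 0.08, adjusted p = 1.48e-11). DENND2A, which activates a Rab GTPase, read 8.65, 8.69 and 8.89 against 4.76, 5.15 and 4.94, and the chloride channel relative CLIC2 read 7.53, 7.35 and 7.51 against 3.68, 3.57 and 3.83, the latter from background. LINC00317, a long noncoding RNA, read 7.91, 7.92 and 7.94 against 4.38, 4.67 and 4.22.

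In the other direction, where CXCL14 and IL1B were also among the 10 most decreased genes, GUCY1B1, the beta subunit of the nitric oxide receptor guanylate cyclase, read 3.43, 3.37 and 3.18 in shp105 cells, within background, and 8.49, 8.58 and 8.65 in shcontrol cells, 37.9-fold lower at -5.24 (SE 0.10, adjusted p = 1.56e-11). The splicing regulator MBNL3 read 3.44, 2.99 and 2.98, also background, against 7.52, 7.55 and 7.42, a difference of -4.36 (SE 0.12, adjusted p = 5.43e-10). ASS1, the argininosuccinate synthase that makes arginine from citrulline, read 6.05, 6.15 and 5.81 against 9.76, 9.89 and 9.79, a difference of -3.81 (SE 0.11, adjusted p = 4.35e-10). RNF175, which has a RING finger, read 4.91, 4.44 and 4.28 against 8.32, 7.91 and 8.26, and PYGL, the liver form of glycogen phosphorylase, read 4.12, 3.92 and 3.91 against 6.96, 7.26 and 7.02, from background in shp105 cells. The adhesion molecule ICAM2 read 4.63, 5.24 and 5.35 against 7.84, 7.80 and 7.75, a difference of -2.72 (SE 0.16, adjusted p = 2.75e-07). These genes were chosen for size and for groups that do not overlap. The differences under DMSO were -5.25 for GUCY1B1, -4.34 for MBNL3, -3.93 for ASS1, -3.67 for RNF175, -2.78 for PYGL and -2.48 for ICAM2.

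**Figure D2:**
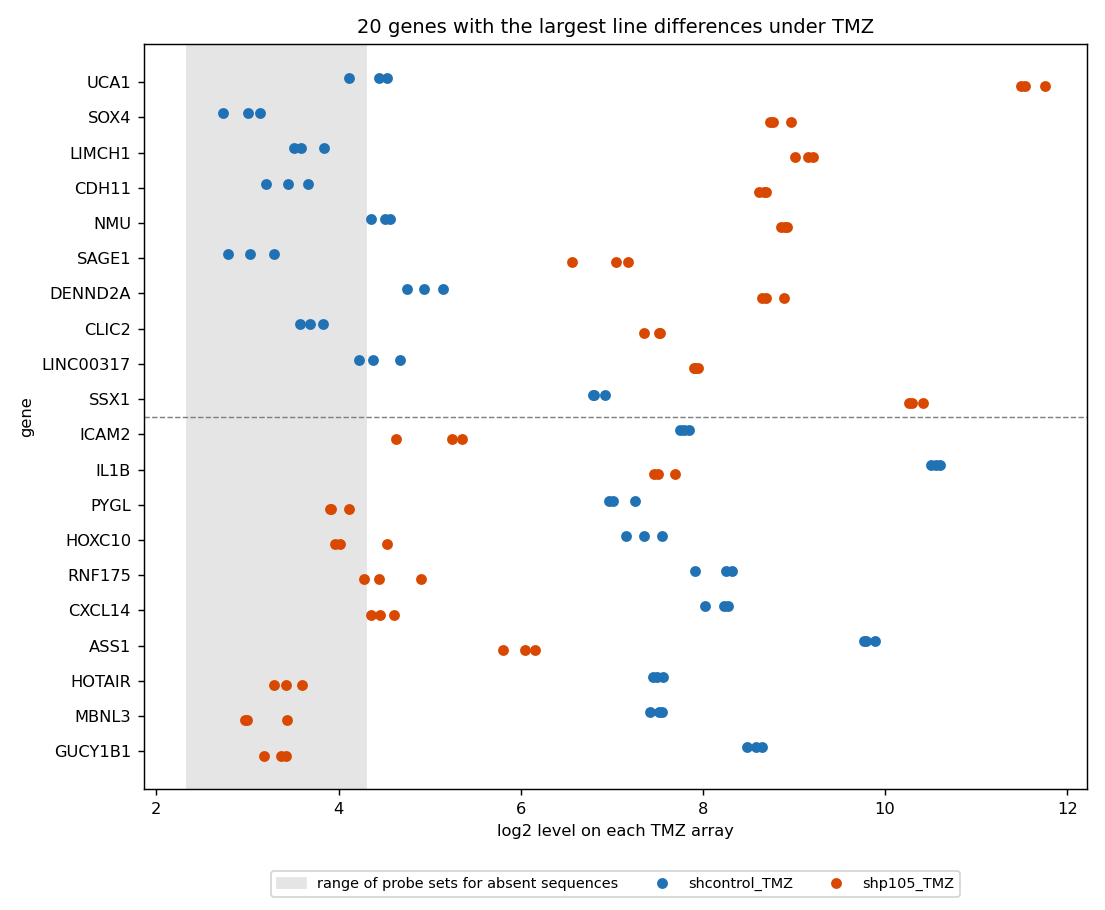
Log2 expression (horizontal axis) under TMZ of the 10 genes most increased and the 10 most decreased in shp105 cells (rows), with a point for each array and the background range shaded. Genes were chosen for groups that do not overlap, and UCA1 lies at 11.49 to 11.75 against 4.11 to 4.53.

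Related genes did not all follow the largest ones. In the guanylate cyclase and cGMP list 4 of 19 genes were lower and 1 was higher (spike-adjusted 0 and 2, 2 higher without shcontrol replicates 1 or 3). Besides GUCY1B1 the lower ones included the alpha subunit GUCY1A2 at -0.79 (SE 0.13, adjusted p = 0.00110, spike-adjusted p = 0.385) and the cGMP phosphodiesterase PDE9A at -1.18 (SE 0.19, adjusted p = 0.000729, 1 of 2 probe sets), the latter reading 3.97, 3.89 and 3.77 in shp105 cells, which is background. NOS3, the endothelial nitric oxide synthase, was higher by 0.91 (SE 0.15, adjusted p = 0.00103, spike-adjusted p = 0.0926), at 5.01, 5.76 and 5.54 against 4.47, 4.57 and 4.53. Of 19 regulators of splicing 4 were lower and 1 was higher (spike-adjusted 1 and 2, by probe-set mean 3 higher and 2 lower). The neuronal ELAVL2 was lower at -1.76 (SE 0.08, adjusted p = 1.79e-08) and NOVA1 at -0.44 (SE 0.07, adjusted p = 0.00110, spike-adjusted p = 0.133, 2 of 3 probe sets). MBNL2, a paralogue of MBNL3, was higher by 0.48 (SE 0.05, adjusted p = 3.85e-05). In arginine metabolism 5 of 17 genes were higher and 3 lower (spike-adjusted 3 and 1, TMZ-only 1 lower, by probe-set mean 3 higher, 1 lower without shp105 replicate 1 or shcontrol replicates 1 or 2). ASL, the lyase that follows ASS1, was higher by 0.39 (SE 0.08, adjusted p = 0.00546, spike-adjusted p = 0.3), and so were the polyamine enzymes SMS, at 11.64, 11.65 and 11.53 against 11.001, 11.06 and 11.07 and 0.56 (SE 0.05, adjusted p = 1.76e-05), and SAT1, by 0.47 (SE 0.05, adjusted p = 3.09e-05). Among 13 long noncoding RNAs 3 were higher and 1 was lower (spike-adjusted 1 and 1, 2 lower without shp105 replicate 3), and TUG1 was the next after UCA1 at 0.41 (SE 0.08, adjusted p = 0.00343, spike-adjusted p = 0.198, 5 of 6 probe sets).

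HOX genes set body position in the embryo, and their expression is kept by daughter cells. Of 35 measured HOX genes, HOTAIR and cofactors 14 were lower and 1 was higher (spike-adjusted 0 and 7, 2 higher without shcontrol replicate 2), with a median of -0.18 against -0.29 under DMSO. HOTAIR, the long noncoding RNA between HOXC genes, read 3.42, 3.29 and 3.59 in shp105 cells, within background, and 7.46, 7.56 and 7.50 in shcontrol cells, 16.8-fold lower at -4.07 (SE 0.11, adjusted p = 2.86e-10). Genes of the same cluster were lower as well: HOXC10 read 4.02, 4.54 and 3.96 against 7.36, 7.15 and 7.55, a difference of -3.18 (SE 0.17, adjusted p = 1.65e-07), HOXC4 read 5.37, 5.28 and 5.28 against 7.37, 7.92 and 7.88, a difference of -2.42 (SE 0.13, adjusted p = 1.39e-07). The HOXC10 values of 4.02 and 3.96 lay within background, so the size of its difference depends on that level. HOXC6 read 6.62, 6.54 and 6.80 against 8.35, 8.26 and 8.35, a difference of -1.67 (SE 0.08, adjusted p = 3.77e-08). Sorted by cluster, a split made after the values were seen, 5 of 9 HOXC genes were lower at a median of -0.73, 4 of 8 HOXD genes at -0.38, and 4 of 10 HOXB genes at -0.15. HOXC8 was not called at -0.39. The cofactor PBX3 was the single higher member, at 0.46 (SE 0.06, adjusted p = 9.92e-05, spike-adjusted p = 0.0720).

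Of 22 histone genes of the replication-dependent clusters and linker histones 9 were lower and 1 was higher (spike-adjusted 1 and 8). The linker histone H1-2 read 7.60, 7.81 and 7.64 against 10.21, 10.32 and 10.20, 5.92-fold lower at -2.57 (SE 0.07, adjusted p = 2.14e-10). H2BC12 read 9.17, 9.27 and 9.13 against 11.62, 11.63 and 11.72, a difference of -2.47 (SE 0.06, adjusted p = 6.79e-11), H2BC6 read 5.64, 5.89 and 5.63 against 7.36, 7.49 and 7.54, a difference of -1.74 (SE 0.11, adjusted p = 3.49e-07), and H2BC9 was lower at -1.28 (SE 0.07, adjusted p = 2.01e-07). The single higher histone was H2AC6, which rose from background at 4.19, 3.85 and 3.54 to 6.50, 6.01 and 6.65, a difference of 2.53 (SE 0.23, adjusted p = 1.05e-05). By type, again a split made after the values were seen, 7 of 10 H2B genes were lower at a median of -0.91, with 3 of the 10 within background in both groups. Limma called 0 of 2 H3C genes (median -0.14) and 0 of 2 H4C genes (median -0.22). In each of these pairs 1 gene was within background in both groups, too few to compare the types. Histone genes are near-identical copies, so probes can read several of them and a member cannot be named with certainty.

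Cancer-testis antigens, germ-line genes that tumours switch on again, were mostly higher where called: 12 of 23 list members were higher, 2 were lower and 9 were not called (-0.15 to 0.08, spike-adjusted 6 and 2). SSX1 read 10.27, 10.30 and 10.41 in shp105 cells and 6.92, 6.81 and 6.80 in shcontrol cells, 11.2-fold higher at 3.48 (SE 0.06, adjusted p = 1.48e-11). SSX3 read 8.05, 8.39 and 8.29 against 5.35, 5.24 and 5.29, a difference of 2.95 (SE 0.11, adjusted p = 4.92e-09), and MAGEC2 read 10.91, 10.57 and 10.84 against 9.13, 8.96 and 9.01, a difference of 1.74 (SE 0.09, adjusted p = 7.22e-08, 1 of 2 probe sets). SAGE1 read 7.17, 7.04 and 6.57 against 2.79, 3.03 and 3.29, which is background. MAGEC1 was lower at 10.04, 9.98 and 10.05 against 12.30, 12.20 and 12.27, a difference of -2.23 (SE 0.05, adjusted p = 6.79e-11). The other lower list member, BEX1 at -1.0 (SE 0.07, adjusted p = 1.27e-06), is not an established antigen of this class. SSX, MAGE and GAGE genes also have near-identical copies. The median was 0.21. Of the pregnancy-specific glycoproteins, placental proteins in a cluster of close copies, 6 of 12 were higher and 0 were lower by limma (1 at an unadjusted p under 0.05; spike-adjusted 5 and 0, 1 lower without shp105 replicates 1 or 2). PSG4 read 7.81, 7.92 and 7.90 against 6.19, 6.35 and 6.64, a difference of 1.48 (SE 0.12, adjusted p = 5.48e-06), and PSG9 read 6.90, 6.87 and 6.85 against 5.95, 5.89 and 5.89, a difference of 0.96 (SE 0.09, adjusted p = 1.17e-05).

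Genes of antigen presentation differed in both directions. Of 25 members 10 were lower and 6 were higher (spike-adjusted 0 and 6, TMZ-only 3 higher, 3 higher without shcontrol replicates 1 or 3), against 10 lower and 2 higher under DMSO. Class II genes, which display extracellular peptides, were lower. HLA-DRA read 6.40, 6.43 and 6.69 against 8.13, 8.19 and 8.18, 3.15-fold lower at -1.66 (SE 0.09, adjusted p = 1.02e-07). HLA-DPA1 read 8.79, 8.76 and 8.69 against 9.80, 9.88 and 9.79, a difference of -1.08 (SE 0.05, adjusted p = 4.63e-08). HLA-DRB1 was lower at -1.07 (SE 0.06, adjusted p = 2.17e-07), from a probe set that can read other DRB genes, and HLA-DPB1 at -0.62 (SE 0.06, adjusted p = 1.11e-05). Class I genes, which display intracellular peptides, were slightly higher: HLA-B read 12.13, 12.13 and 12.17 against 11.95, 11.93 and 11.92, a difference of 0.21 (SE 0.05, adjusted p = 0.00718, spike-adjusted p = 0.0873), HLA-C was at 0.23 (SE 0.05, adjusted p = 0.00957, spike-adjusted p = 0.251) and HLA-F at 0.21 (SE 0.04, adjusted p = 0.00480, spike-adjusted p = 0.210, 2 of 3 probe sets). In a split made after the values were seen, 7 of 8 class II genes (with CD74 and CIITA) were lower at a median of -0.59, and 5 of 7 class I genes (with B2M and NLRC5) were higher at a median of 0.21. CIITA, the activator of class II transcription, was not called at -0.14, and the light chain B2M was at 0.07. None of the class I calls held in the spike-adjusted fit.

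The interferon response, which can also raise class I genes, had 8 higher and 5 lower of 37 (spike-adjusted 2 and 0, TMZ-only 3 lower, 3 lower without shcontrol replicates 1 or 2), with a median of 0.09. The antiviral GTPase MX2 read 6.30, 6.40 and 6.71 against 5.65, 5.69 and 5.71, a difference of 0.79 (SE 0.12, adjusted p = 0.000461). The RNA-degrading pathway gene OAS3 read 6.88, 6.95 and 6.89 against 6.34, 6.36 and 6.44, at 0.53 (SE 0.09, adjusted p = 0.00108, spike-adjusted p = 0.0510, 1 of 2 probe sets), and the membrane protein IFITM2 was higher by 0.49 (SE 0.08, adjusted p = 0.00119). IRF1, an interferon regulatory factor that NF-kB also induces, was lower at 7.32, 7.51 and 7.42 against 7.77, 7.84 and 7.86, a difference of -0.41 (SE 0.06, adjusted p = 0.000545, spike-adjusted p = 0.102). IFI44L was lower at -0.49 (SE 0.07, adjusted p = 0.000547, spike-adjusted p = 0.115), and the RNA sensor RIGI at -0.30 (SE 0.06, adjusted p = 0.00211, spike-adjusted p = 0.191).

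The integrated stress response couples amino acid shortage, misfolded protein and other stresses to the transcription factor ATF4. Of 20 effectors 11 were higher, 1 was lower (spike-adjusted 3 and 0, by probe-set mean 3 lower, 2 lower without shp105 replicate 1) and 8 were not called, at a median of 0.21. Under DMSO 4 were higher and 3 lower, at a median of -0.04. NUPR1, a stress-induced chromatin protein, read 10.23, 10.53 and 10.31 in shp105 cells and 8.98, 9.11 and 8.93 in shcontrol cells, 2.55-fold higher at 1.35 (SE 0.08, adjusted p = 1.89e-07), with 0.88 under DMSO. The secreted glycoprotein STC2 read 8.74, 8.97 and 8.74 against 8.02, 8.01 and 8.05, a difference of 0.79 (SE 0.07, adjusted p = 5.11e-06), with 0.61 under DMSO. DDIT4, an inhibitor of mTOR complex signalling, read 10.38, 10.46 and 10.44 against 9.92, 9.98 and 9.76, a difference of 0.54 (SE 0.06, adjusted p = 4.35e-05). EIF4EBP1, which restrains cap-dependent translation, was higher by 0.41 (SE 0.05, adjusted p = 0.000123, spike-adjusted p = 0.0625). CEBPB was the lower member at -0.27 (SE 0.05, adjusted p = 0.00174, spike-adjusted p = 0.166).

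The DMSO arrays show how 2 of these genes, DDIT4 and DDIT3, stood without the drug. Both were among the 10 genes with the smallest p for the difference between both line differences. Under DMSO, DDIT4 read 10.14, 10.13 and 10.16 in shp105 cells and 10.21, 10.19 and 10.19 in shcontrol cells, a difference of -0.05 that was not called. DDIT3, the pro-apoptotic factor CHOP, read 9.83, 9.97 and 9.83 against 9.40, 9.50 and 9.37 under TMZ, at 0.46 (adjusted p = 0.000166). That call was lost in the spike-adjusted fit. Under DMSO, DDIT3 read 9.65, 9.54 and 9.65 against 9.72, 9.73 and 9.70, at -0.10. In the shcontrol line all TMZ values of DDIT4 and DDIT3 lay below all DMSO values, and in the shp105 line all lay above. Genes that rank first by that p tend to show such a pattern, so it is no separate support for a difference between treatments. Of all 19775 genes, 1237 were called, in either direction, under TMZ and not under DMSO, and 4 were called in opposite directions. Of the 20 stress effectors, 7 were called higher under TMZ and not higher under DMSO. They were DDIT4, DDIT3, CEBPG, CHAC1, ATF4 and ATF3, which were not called under DMSO, and GDF15. The last was at 0.23 under TMZ and -0.25 under DMSO, where it was called lower. The test of the difference between both line differences called 0 of all 19775 genes (0%) and so none of these 7. It gave 0.59 (SE 0.08, adjusted p = 0.104) for DDIT4 and 0.56 (SE 0.08, adjusted p = 0.136) for DDIT3.

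Genes that ATF4 is known to induce for amino acid supply were higher in part: 13 of 29 were higher, 1 was lower (spike-adjusted 3 and 0, by probe-set mean 2 lower), and the median was 0.16, with 9 higher and 1 lower under DMSO. CTH, which makes cysteine, read 9.10, 9.10 and 9.05 against 8.36, 8.38 and 8.41, a difference of 0.70 (SE 0.05, adjusted p = 2.55e-06). The tyrosyl-tRNA synthetase YARS1 read 11.14, 11.09 and 11.24 against 10.72, 10.64 and 10.58, a difference of 0.51 (SE 0.06, adjusted p = 4.09e-05). The amino acid transporters SLC7A5 and SLC7A1 were higher by 0.59 (SE 0.08, adjusted p = 0.000352, spike-adjusted p = 0.0987) and 0.30 (SE 0.06, adjusted p = 0.00267, 4 of 5 probe sets), and the asparagine synthetase ASNS by 0.40 (SE 0.06, adjusted p = 0.000502, spike-adjusted p = 0.203). PSPH, the last enzyme of serine synthesis, was lower at -0.48 (SE 0.08, adjusted p = 0.00152, spike-adjusted p = 0.186, 2 of 3 probe sets). Of 20 chaperones and unfolded protein response genes of the endoplasmic reticulum 3 were higher and 2 lower (spike-adjusted 0 and 0, TMZ-only 1 higher and 0 lower, by probe-set mean 1 higher, 1 higher without shp105 replicate 3 or shcontrol replicates 2 or 3, 1 lower without shp105 replicate 2 or shcontrol replicate 1, 0 lower without shcontrol replicate 2), at a median of 0.02. DNAJB9, a cochaperone, was higher by 0.41 (SE 0.07, adjusted p = 0.000968, spike-adjusted p = 0.203), CRELD2 was at -0.23, and the central chaperone HSPA5 was not called at 0.03.

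**Figure D3:**
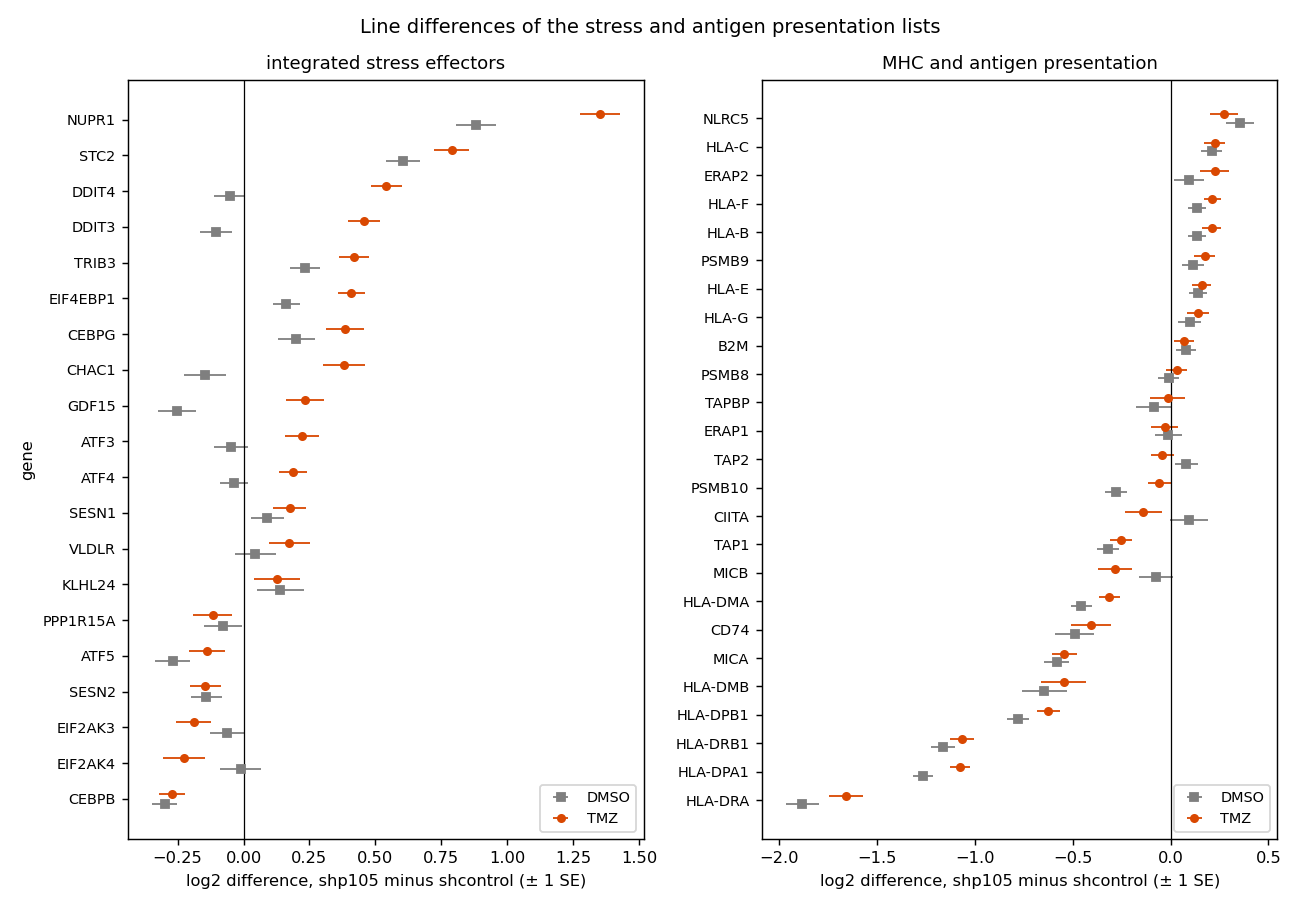
Log2 differences (horizontal axis, shp105 minus shcontrol, bars are standard errors) under TMZ and DMSO for the members of the stress list and of the antigen presentation list (rows). DDIT4, the stress gene with the smallest p for the difference between treatments, lies at 0.54 under TMZ and -0.05 under DMSO. Of the 20 stress genes, 5 had the same call under both treatments. HLA-DRA lies at -1.66 under TMZ and -1.88 under DMSO.

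The p53 targets, genes of the DNA damage response, differed in both directions: 3 of 31 were higher and 9 were lower (spike-adjusted 1 and 2, TMZ-only 4 lower, 5 higher without shp105 replicate 2, 4 lower without shp105 replicate 3 or shcontrol replicate 1, 5 lower without shcontrol replicates 2 or 3), at a median of -0.01. CDKN1A, the cell-cycle inhibitor p21, read 10.91, 10.84 and 10.92 against 11.30, 11.24 and 11.22, a difference of -0.36 (SE 0.06, adjusted p = 0.000687, spike-adjusted p = 0.0815). The death receptor FAS read 9.41, 9.38 and 9.29 against 9.79, 9.79 and 9.80, at -0.43 (SE 0.06, adjusted p = 0.000219), the pro-apoptotic BAX was lower at -0.44 (SE 0.08, adjusted p = 0.00189, spike-adjusted p = 0.528), and TRIM22 at -0.62 (SE 0.06, adjusted p = 1.80e-05). PMAIP1, a BH3-only killer, was higher at 11.14, 10.72 and 11.07 against 10.42, 10.37 and 10.33, a difference of 0.60 (SE 0.10, adjusted p = 0.00106, spike-adjusted p = 0.181), as was TRIAP1 at 0.35 (SE 0.05, adjusted p = 0.000265). In the BCL2 family 3 of 15 were higher and 2 were lower (spike-adjusted 0 and 0, TMZ-only 1 lower, 1 lower without shp105 replicate 1 or shcontrol replicates 1, 2 or 3), with the BH3-only gene HRK higher by 0.78 (SE 0.16, adjusted p = 0.00387, spike-adjusted p = 0.209, 3 of 5 probe sets). Among 15 death receptor genes 3 were higher and 4 lower (spike-adjusted 1 and 1, by probe-set mean 2 lower). The receptor TNFRSF21 read 9.01, 8.94 and 9.04 against 8.22, 8.25 and 8.09, a difference of 0.81 (SE 0.06, adjusted p = 1.36e-06), the inflammatory caspase CASP4 was higher by 0.38 (SE 0.07, adjusted p = 0.00211, spike-adjusted p = 0.235), and the decoy receptor TNFRSF10D was lower at -0.33 (SE 0.05, adjusted p = 0.000840, spike-adjusted p = 0.109). CFLAR, which blocks caspase activation at these receptors, was lower at -0.24 (SE 0.05, adjusted p = 0.00554, spike-adjusted p = 0.499, 10 of 14 probe sets).

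Cell-cycle genes were mostly lower where called, by small amounts. Of 16 CDK inhibitors and G1 cyclins 6 were lower and 0 higher by limma (2 at an unadjusted p under 0.05, spike-adjusted 0 and 0, TMZ-only 3 lower, by probe-set mean 1 higher). Cyclin CCND1 read 9.35, 9.51 and 9.53 against 9.89, 10.00 and 9.95, a difference of -0.48 (SE 0.07, adjusted p = 0.000620, spike-adjusted p = 0.289). The inhibitor CDKN1B read 9.60, 9.63 and 9.58 against 9.95, 9.92 and 9.89, a difference of -0.32 (SE 0.06, adjusted p = 0.00230, spike-adjusted p = 0.398). Of 33 replication genes 9 were lower and 1 was higher (spike-adjusted 1 and 0, TMZ-only 5 lower, by probe-set mean 2 higher, 3 higher without shp105 replicate 2, 5 lower without shp105 replicate 1 or shcontrol replicates 2 or 3, 4 lower without shcontrol replicate 1). The replicative helicase partner GINS4 was lower at -0.59 (SE 0.07, adjusted p = 5.95e-05, spike-adjusted p = 0.0841), MCM10 at -0.40 (SE 0.08, adjusted p = 0.00426, spike-adjusted p = 0.318) and UHRF1, which copies DNA methylation, at -0.34 (SE 0.07, adjusted p = 0.00497, spike-adjusted p = 0.322). The thymidylate synthase TYMS was higher at 12.56, 12.70 and 12.50 against 11.93, 11.97 and 11.87, a difference of 0.66 (SE 0.06, adjusted p = 1.23e-05). Of 34 mitosis genes 11 were lower and 1 was higher (spike-adjusted 0 and 0, TMZ-only 6 lower, 2 higher without shp105 replicate 1, 7 lower without shcontrol replicate 3). Cyclin CCNB1 read 11.70, 11.80 and 11.75 against 12.14, 12.17 and 12.12, a difference of -0.39 (SE 0.05, adjusted p = 0.000140, spike-adjusted p = 0.0964), and the proliferation marker MKI67 10.18, 10.45 and 10.26 against 10.65, 10.71 and 10.62, at -0.36 (SE 0.07, adjusted p = 0.00318, spike-adjusted p = 0.165, 3 of 4 probe sets). The kinase AURKA was lower at -0.30 (SE 0.05, adjusted p = 0.000917, spike-adjusted p = 0.0874) and the kinesin KIF20A was higher by 0.29 (SE 0.05, adjusted p = 0.00110, spike-adjusted p = 0.0807). The medians of the replication and mitosis lists were -0.04 and -0.12.

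DNA repair decides how cells deal with the methylated bases that TMZ leaves. MGMT, which removes the methyl group from guanine, read 3.55, 3.42 and 3.29 in shp105 cells and 3.56, 3.07 and 3.52 in shcontrol cells, all within background, a difference of 0.04 (SE 0.11, adjusted p = 0.870). Of 24 alkylation, mismatch and base excision genes 2 were higher and 4 were lower (spike-adjusted 0 and 0, TMZ-only 0 higher, by probe-set mean 0 higher, 1 higher without shp105 replicates 1 or 2, 0 higher without shp105 replicate 3 or shcontrol replicates 1 or 3, 2 lower without shcontrol replicate 2). The glycosylases OGG1 and NEIL3 were lower at -0.37 (SE 0.06, adjusted p = 0.000921, spike-adjusted p = 0.0565, 1 of 3 probe sets) and -0.32 (SE 0.06, adjusted p = 0.00321, spike-adjusted p = 0.113). The mismatch gene MSH6 was not called at 0.02, nor the methylpurine glycosylase MPG at 0.06. Of 28 recombination and Fanconi genes 2 were higher and 5 lower (spike-adjusted 0 and 2, by probe-set mean 1 higher, 1 higher without shcontrol replicate 1), with RAD51C at 10.07, 10.05 and 10.07 against 10.42, 10.48 and 10.42, a difference of -0.38 (SE 0.05, adjusted p = 0.000233), PALB2 at -0.38 (SE 0.05, adjusted p = 0.000362) and BARD1 at -0.35 (SE 0.07, adjusted p = 0.00232, spike-adjusted p = 0.583). The Fanconi gene FANCC was higher by 0.25 (SE 0.06, adjusted p = 0.00737, spike-adjusted p = 0.168, 2 of 3 probe sets).

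The extracellular matrix held the list with the highest share of called members, 67.4%: 17 of 46 were higher and 14 lower (spike-adjusted 11 and 3, TMZ-only 9 lower, 9 lower without shp105 replicate 1), at a median of -0.0009. Lists were chosen with earlier results of these data known, so this rank is no test. Within background in both groups were 5 of the 46, against 5076 of all 19775 genes. LOXL2, which crosslinks collagen, read 10.52, 10.64 and 10.49 against 9.29, 9.37 and 9.38, a difference of 1.20 (SE 0.05, adjusted p = 3.31e-08, 3 of 4 probe sets), and LOX was higher by 0.71 (SE 0.05, adjusted p = 7.97e-07). The laminin chain LAMA4 read 7.78, 7.82 and 7.68 against 5.98, 6.04 and 5.97, 3.39-fold higher at 1.76 (SE 0.09, adjusted p = 7.03e-08), and the microfibril protein FBN1 read 10.26, 10.29 and 10.33 against 9.34, 9.32 and 9.33, a difference of 0.96 (SE 0.05, adjusted p = 1.69e-07). COL1A1 was higher by 1.03 (SE 0.07, adjusted p = 1.46e-06, 3 of 5 probe sets). THBS2, an inhibitor of angiogenesis, was lower at 6.64, 6.88 and 6.78 against 8.06, 8.06 and 8.05, a difference of -1.29 (SE 0.08, adjusted p = 2.41e-07). Fibronectin, FN1, was lower at -0.37 (SE 0.05, adjusted p = 0.000137, spike-adjusted p = 0.106) and the basement membrane collagen COL4A6 at -0.58 (SE 0.06, adjusted p = 4.62e-05).

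Proteases that remodel this matrix and their inhibitors differed member by member, with 9 higher and 4 lower of 24 (spike-adjusted 4 and 1). The collagenase MMP1 read 7.48, 7.57 and 7.44 against 8.90, 8.89 and 8.86, 2.61-fold lower at -1.39 (SE 0.06, adjusted p = 1.49e-08), whereas the gelatinase MMP2 read 12.86, 12.89 and 12.83 against 11.87, 11.85 and 11.92, 1.97-fold higher at 0.98 (SE 0.05, adjusted p = 5.83e-08, 2 of 3 probe sets). Among the inhibitors, TIMP3 read 9.26, 9.24 and 9.15 against 5.28, 6.07 and 6.22, a difference of 3.36 (SE 0.25, adjusted p = 1.80e-06), TIMP4 was higher by 0.87 (SE 0.06, adjusted p = 6.11e-07) and TIMP2 by 0.40 (SE 0.05, adjusted p = 6.32e-05). TIMP1 was lower at 13.31, 13.33 and 13.39 against 13.71, 13.74 and 13.68, a difference of -0.37 (SE 0.05, adjusted p = 0.000245, spike-adjusted p = 0.0847). In the plasminogen system, 3 of 13 were higher and 3 lower (spike-adjusted 1 and 3). The activator PLAU read 12.20, 12.26 and 12.23 against 12.97, 13.02 and 12.94, a difference of -0.75 (SE 0.05, adjusted p = 5.43e-07), and its receptor PLAUR read 10.06, 9.96 and 10.03 against 10.91, 10.97 and 10.89, a difference of -0.91 (SE 0.06, adjusted p = 3.34e-07). SERPINB7 was higher by 0.99 (SE 0.05, adjusted p = 1.39e-07), and SERPINI1, an inhibitor of tissue plasminogen activator, was lower at -0.61 (SE 0.06, adjusted p = 3.16e-05).

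Adhesion genes were mixed, with 7 higher and 6 lower of 28 integrins and immunoglobulin adhesion molecules (spike-adjusted 3 and 3). ICAM1, a leukocyte ligand and NF-kB target, read 6.55, 6.71 and 6.56 against 7.46, 7.50 and 7.52, a difference of -0.88 (SE 0.07, adjusted p = 2.97e-06). MCAM read 8.28, 8.41 and 8.43 against 7.56, 7.44 and 7.39, a difference of 0.91 (SE 0.06, adjusted p = 8.92e-07), and the shared integrin chain ITGB1 was higher at 13.10, 13.12 and 13.05 against 12.58, 12.60 and 12.65, 0.48 (SE 0.05, adjusted p = 2.22e-05, 5 of 7 probe sets). The collagen-binding chains ITGA1 and ITGA2 were lower at -0.56 (SE 0.07, adjusted p = 0.000149) and -0.54 (SE 0.08, adjusted p = 0.000367, spike-adjusted p = 0.136). Of 16 cadherins 3 were higher and 1 was lower (spike-adjusted 3 and 0, by probe-set mean 0 lower, 0 lower without shp105 replicates 1 or 2 or shcontrol replicates 2 or 3). Besides CDH11 the higher ones were the placental cadherin CDH3, at 7.91, 7.91 and 8.08 against 5.87, 5.45 and 5.76 and 2.27 (SE 0.13, adjusted p = 2.22e-07), and the neural cadherin CDH2, by 0.39 (SE 0.06, adjusted p = 0.000949). Of 12 keratins 4 were higher and 0 were lower by limma (0 at an unadjusted p under 0.05, spike-adjusted 4 and 0). KRT80 read 8.29, 8.19 and 8.44 against 6.44, 6.51 and 6.36, a difference of 1.87 (SE 0.09, adjusted p = 4.72e-08), and KRT7 read 6.06, 6.09 and 6.27 against 4.99, 4.79 and 4.73, a difference of 1.30 (SE 0.08, adjusted p = 5.11e-07, 2 of 4 probe sets). KRT8 was higher by 0.80 (SE 0.08, adjusted p = 3.10e-05) and KRT15 by 0.63 (SE 0.07, adjusted p = 4.23e-05), and all 4 higher calls held in the spike-adjusted fit. Among 31 actomyosin genes 8 were higher and 6 lower (spike-adjusted 3 and 1). The heavy chain of nonmuscle myosin, MYH9, read 8.22, 8.45 and 8.57 against 9.28, 9.40 and 9.28, a difference of -0.91 (SE 0.08, adjusted p = 9.53e-06), whereas the light chain MYL9 was higher by 0.69 (SE 0.08, adjusted p = 5.24e-05).

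Mesenchymal glioma markers were split: of 25, 6 were higher and 8 lower (spike-adjusted 5 and 0), at a median of -0.03. CHI3L1, a secreted glycoprotein used as a mesenchymal marker, read 7.43, 7.39 and 7.44 against 4.65, 4.33 and 4.41, 7.77-fold higher at 2.96 (SE 0.13, adjusted p = 1.88e-08), and TGFBI and LGALS3 were higher by 0.62 (SE 0.05, adjusted p = 1.90e-06) and 0.61 (SE 0.05, adjusted p = 2.13e-06). The fold of CHI3L1 rests on shcontrol values just above background. CD44 was lower at -0.32 (SE 0.05, adjusted p = 0.000500, spike-adjusted p = 0.179, 11 of 13 probe sets). Of 22 glial transcription factors 2 were higher and 4 lower (spike-adjusted 2 and 1). OLIG2, a factor of the oligodendrocyte lineage, rose from background at 3.76, 4.27 and 4.02 to 5.30, 5.20 and 5.65, a difference of 1.37 (SE 0.15, adjusted p = 4.89e-05). SOX5 read 4.89, 5.34 and 5.58 against 6.49, 6.35 and 6.55, a difference of -1.19 (SE 0.15, adjusted p = 0.000105, spike-adjusted p = 0.113, 3 of 4 probe sets). SOX9, which glial cells need, was lower at -0.36 (SE 0.05, adjusted p = 0.000356, spike-adjusted p = 0.0995), and NFIB at -0.34 (SE 0.06, adjusted p = 0.00198, 8 of 9 probe sets).

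Of 20 genes that restrain ERK signalling or respond to it 7 were lower and 4 higher (spike-adjusted 1 and 3). The ERK phosphatase DUSP6 read 8.97, 8.89 and 8.88 against 10.19, 10.07 and 10.25, 2.39-fold lower at -1.26 (SE 0.07, adjusted p = 2.01e-07). SPRY4 read 8.21, 8.09 and 8.19 against 8.85, 8.91 and 8.93, a difference of -0.73 (SE 0.06, adjusted p = 5.01e-06), SPRY2 was lower at -0.62 (SE 0.05, adjusted p = 5.11e-06), and the ETS factor ETV1 at -0.75 (SE 0.09, adjusted p = 0.000124, spike-adjusted p = 0.0597). DUSP10, a phosphatase for stress kinases, was higher by 0.52 (SE 0.05, adjusted p = 2.90e-05). Of 29 immediate early factors 6 were higher and 9 lower (spike-adjusted 1 and 2). EGR1 read 8.68, 8.72 and 8.91 against 9.83, 9.90 and 9.88, a difference of -1.10 (SE 0.08, adjusted p = 1.59e-06), and the AP-1 subunits FOSL1 and JUN were lower at -0.31 (SE 0.05, adjusted p = 0.00159, spike-adjusted p = 0.197) and -0.31 (SE 0.06, adjusted p = 0.00266, spike-adjusted p = 0.394). KLF5 read 8.11, 7.95 and 7.90 against 7.05, 7.08 and 6.91, at 0.97 (SE 0.11, adjusted p = 5.12e-05, spike-adjusted p = 0.0664), and the matricellular gene CCN2 was higher by 0.71 (SE 0.06, adjusted p = 9.44e-06). Of 42 receptor tyrosine kinases and ligands 7 were higher and 10 lower (spike-adjusted 1 and 3). The ligand EREG, which binds EGFR, read 8.02, 7.57 and 7.84 against 9.44, 9.33 and 9.42, 3.0-fold lower at -1.59 (SE 0.10, adjusted p = 3.49e-07), and NRG1 was lower at -0.81 (SE 0.08, adjusted p = 1.56e-05, 5 of 6 probe sets). The ephrin receptor EPHA4 read 3.62, 3.68 and 3.62, within background, against 6.28, 6.39 and 6.29, a difference of -2.68 (SE 0.10, adjusted p = 7.20e-09, 4 of 5 probe sets). The receptor AXL was higher at 12.66, 12.75 and 12.71 against 12.05, 12.12 and 12.05, a difference of 0.64 (SE 0.05, adjusted p = 1.72e-06), and its ligand GAS6 was lower at -0.32 (SE 0.05, adjusted p = 0.000551, spike-adjusted p = 0.0964).

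Of 35 TGF-beta and BMP pathway genes 7 were higher and 6 lower (spike-adjusted 3 and 1). Of the ID genes, BMP targets that block differentiation factors, 3 were higher and ID4 was not called at 0.04: ID3 read 9.53, 9.69 and 9.57 against 7.91, 7.99 and 7.77, 3.26-fold at 1.71 (SE 0.07, adjusted p = 1.77e-08), ID2 read 9.26, 9.35 and 9.50 against 7.98, 8.03 and 8.04, at 1.35 (SE 0.06, adjusted p = 2.82e-08), and ID1 was at 0.47 (SE 0.07, adjusted p = 0.000379, spike-adjusted p = 0.0546). The inhibitory SMAD6 was higher by 0.70 (SE 0.09, adjusted p = 0.000124, spike-adjusted p = 0.0766, 3 of 4 probe sets), and the latency protein LTBP1 was lower at -0.59 (SE 0.07, adjusted p = 5.35e-05). Of 36 WNT and Notch genes 8 were higher and 7 lower (spike-adjusted 4 and 3, 3 lower without shcontrol replicate 2). The receptor FZD7 read 6.19, 6.18 and 6.13 against 7.72, 7.67 and 7.54, a difference of -1.48 (SE 0.07, adjusted p = 3.77e-08). FZD6 and FZD2 were higher by 0.72 (SE 0.07, adjusted p = 2.89e-05) and 0.96 (SE 0.11, adjusted p = 6.59e-05, spike-adjusted p = 0.0762). The secreted WNT inhibitor DKK1 read 9.95, 9.97 and 9.86 against 9.13, 9.13 and 9.23, at 0.76 (SE 0.06, adjusted p = 2.73e-06), its relative DKK3 was higher by 1.10 (SE 0.07, adjusted p = 8.92e-07, 5 of 6 probe sets), and LEF1 was lower at -0.55 (SE 0.05, adjusted p = 1.48e-05). Of 20 lysophospholipid receptors and enzymes 1 was higher and 5 lower (spike-adjusted 0 and 4, by probe-set mean 2 higher, 0 higher without shp105 replicate 1 or shcontrol replicate 3). PLPP3, which degrades such lipids outside the cell, read 6.23, 6.07 and 6.42 against 8.19, 8.37 and 7.89, a difference of -1.91 (SE 0.13, adjusted p = 9.73e-07), and the receptors LPAR1 and S1PR3 were lower at -0.81 (SE 0.07, adjusted p = 6.01e-06) and -0.79 (SE 0.09, adjusted p = 5.44e-05, 1 of 2 probe sets).

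Among metabolic genes, 11 of the 35 in the hypoxia and glycolysis list were higher and 2 lower (spike-adjusted 3 and 0, TMZ-only 6 higher and 1 lower, 1 lower without shp105 replicates 1, 2 or 3 or shcontrol replicates 1 or 2), at a median of 0.11. The glucose transporter SLC2A1 read 7.79, 7.71 and 7.94 against 6.89, 7.04 and 6.84, a difference of 0.88 (SE 0.08, adjusted p = 7.82e-06), SLC2A3 was higher by 0.49 (SE 0.06, adjusted p = 0.000116), and PDK1, which keeps pyruvate out of the mitochondria, read 9.66, 9.31 and 9.55 against 8.80, 8.71 and 8.78, at 0.74 (SE 0.08, adjusted p = 5.24e-05, 2 of 3 probe sets). VEGFA was not called at -0.12. Of 28 cholesterol genes 10 were lower and 2 higher (spike-adjusted 0 and 2, TMZ-only 1 higher, by probe-set mean 6 lower, 1 higher without shp105 replicate 1 or shcontrol replicate 1), at a median of -0.11. SQLE and MSMO1, enzymes of the late pathway, were lower at -0.54 (SE 0.06, adjusted p = 6.03e-05) and -0.78 (SE 0.10, adjusted p = 0.000134, spike-adjusted p = 0.0745), and the regulator SREBF2 at -0.43 (SE 0.07, adjusted p = 0.000944, spike-adjusted p = 0.251, 2 of 3 probe sets). SCAP, its escort protein, was higher by 0.35 (SE 0.06, adjusted p = 0.00183, spike-adjusted p = 0.235). Of 35 antioxidant and detoxification genes 12 were higher and 2 lower (spike-adjusted 4 and 0, TMZ-only 1 lower, by probe-set mean 1 lower). AKR1C3, an aldo-keto reductase, read 7.45, 7.47 and 7.58 against 4.67, 4.13 and 4.38, 8.62-fold higher at 3.11 (SE 0.11, adjusted p = 4.88e-09), and its near-identical relatives AKR1C2 and AKR1C1 were higher by 0.85 (SE 0.06, adjusted p = 2.06e-06, 2 of 3 probe sets) and 0.66 (SE 0.06, adjusted p = 5.62e-06, 3 of 5 probe sets). The fold of AKR1C3 depends on a shcontrol level close to background, with its value of 4.13 inside that range. Of 10 drug transporters 3 were higher and 0 were lower by limma (2 at an unadjusted p under 0.05; spike-adjusted 2 and 0, by probe-set mean 1 lower, 1 lower without shp105 replicate 3), among them ABCC2 at 6.17, 6.31 and 6.41 against 4.77, 4.98 and 5.27, a difference of 1.29 (SE 0.13, adjusted p = 1.83e-05), and ABCC3 at 0.74 (SE 0.07, adjusted p = 2.42e-05). Of 13 carbonic anhydrases 2 were lower and 0 higher by limma (0 at an unadjusted p under 0.05, spike-adjusted 1 and 1, by probe-set mean 1 higher). CA2 read 6.08, 5.94 and 5.95 against 7.02, 7.13 and 7.05, a difference of -1.08 (SE 0.08, adjusted p = 1.90e-06), and CA13 was lower at -0.47 (SE 0.08, adjusted p = 0.00122, spike-adjusted p = 0.210). None of 13 measured ribosomal protein genes was called by limma, at differences from -0.01 to 0.08, and 0 and 0 passed an unadjusted p under 0.05 in the higher and lower direction.

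**Figure D4:**
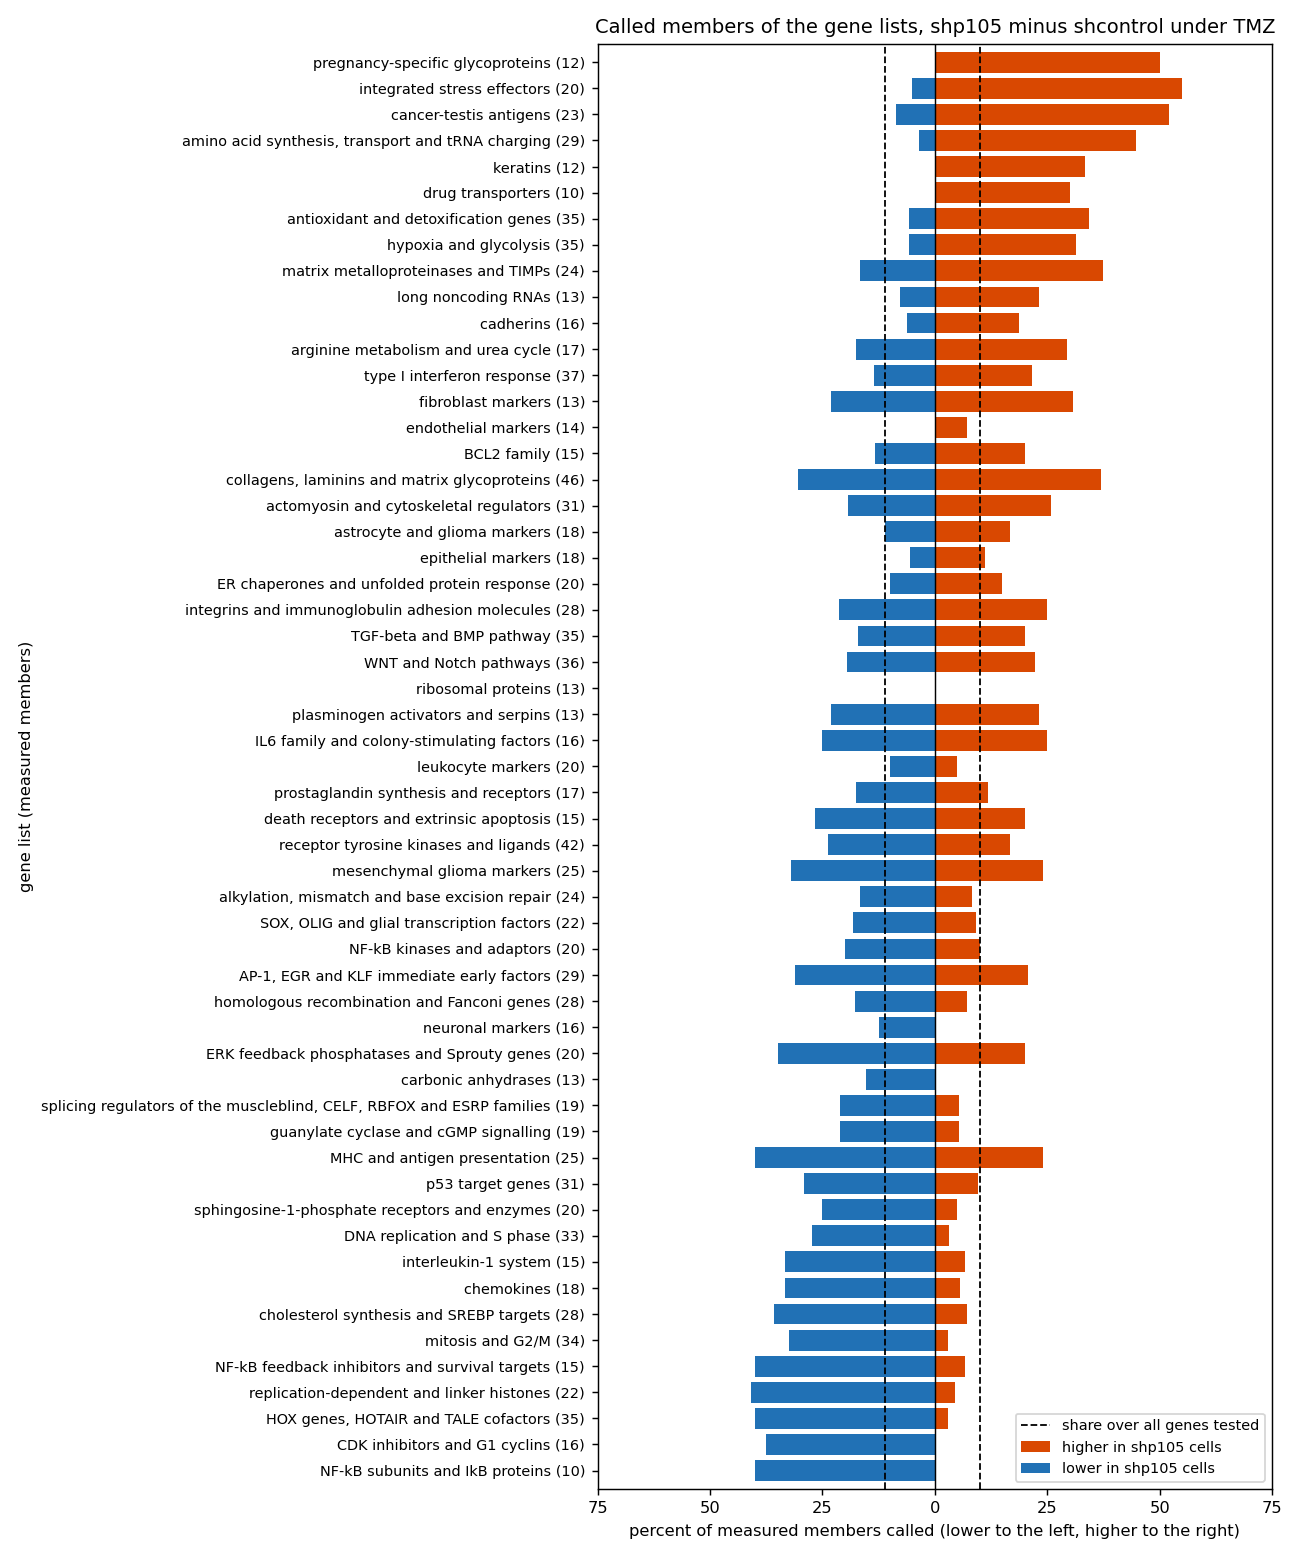
Share of measured members (horizontal axis, percent) called higher and lower in shp105 cells under TMZ for each gene list (rows), with vertical lines at the shares over all genes, 10.1% higher and 11% lower. Matrix genes have the highest total share, 67.4%, and ribosomal protein genes have 0%. Lists were chosen with earlier results of these data known, so a share beyond the lines is no test.

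The DMSO comparison uses the same lines on other arrays. The same call was made under both treatments for 2925 genes, which is 70.2% of the genes called under TMZ and 74.3% of those called under DMSO, and 1237 genes were called under TMZ alone. A call under TMZ alone is no test of a difference between treatments. The test of that difference, limma's contrast of both line differences, called 0 genes, with 1266 at an unadjusted p under 0.05 and a lowest adjusted p of 0.104. It called 8 genes with the dim genes left out, 12 with trend and robust fitting and 1 with an ordinary linear model.

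The 10 genes with the smallest p in that test give its size. LINC00520, a long noncoding RNA, read 10.01, 10.07 and 10.04 in shp105 and 8.23, 8.31 and 8.25 in shcontrol cells under TMZ, and 9.52, 9.47 and 9.39 and 8.23, 8.16 and 8.26 under DMSO. The shcontrol values of both treatments overlapped and the shp105 values did not, and the difference between both line differences was 0.53 (SE 0.07, adjusted p = 0.104). For PNLIPRP3, a lipase relative, it was 0.58 (SE 0.08, adjusted p = 0.104), with line differences of -0.13 under TMZ and -0.71 under DMSO. The polo-like kinase gene PLK2 read 8.86, 8.88 and 8.89 against 8.77, 8.81 and 8.77 under TMZ and 8.73, 8.74 and 8.76 against 8.29, 8.24 and 8.19 under DMSO, with all shcontrol values higher under TMZ than under DMSO, and the contrast was -0.41 (SE 0.07, adjusted p = 0.138). The contrast was 0.75 (SE 0.12, adjusted p = 0.138) for KRT7 and 0.50 (SE 0.08, adjusted p = 0.138) for GCNT3, an enzyme of mucin glycan synthesis. For RAB33A, TRPC4 and SPAG8 it ranged from 0.49 to 0.74. None of the 10 passed.

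**Figure D5:**
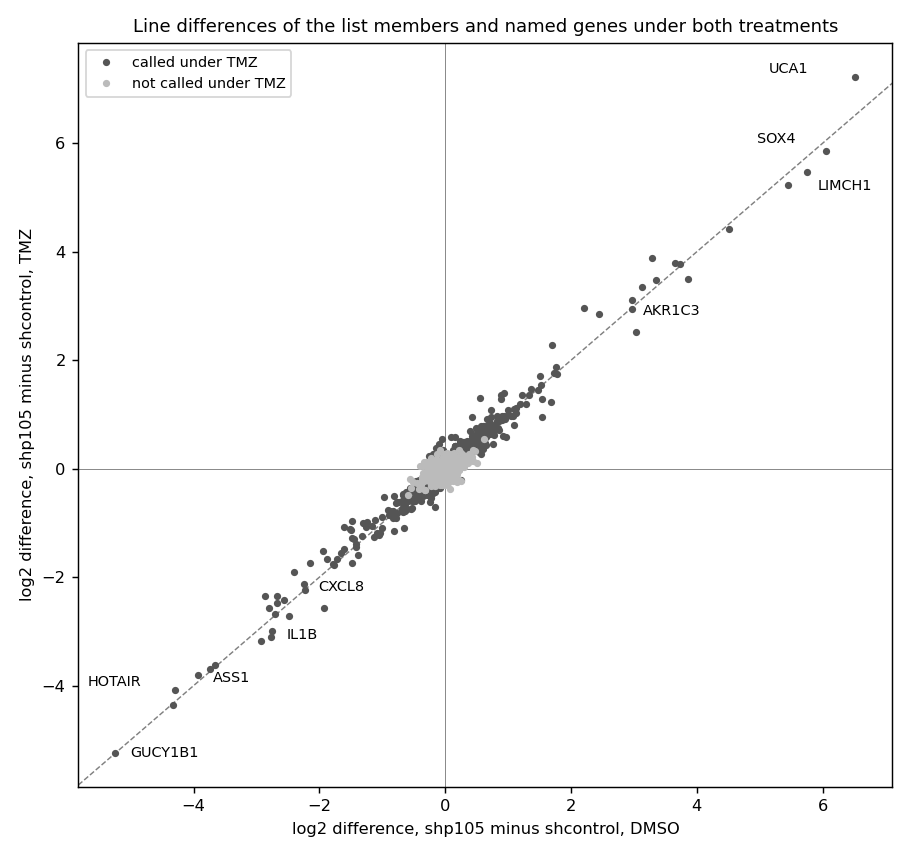
Log2 difference between shp105 and shcontrol cells under TMZ (vertical axis) and under DMSO (horizontal axis) for the list members and the genes named by rule (points). The line marks equal differences: UCA1 lies at 7.23 and 6.52, and DDIT4 at 0.54 and -0.05.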

How the data were processed

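Total RNA of U-87 MG cells was biotin-labelled and hybridised to Affymetrix HG-U133 Plus 2 arrays, per the labels. The deposited values are log2 levels of 54675 probe sets that the authors made with RMA and Affymetrix Power Tools, per the submitters' processing notes; their versions and settings were not stated in the labels. RMA corrects background, equalises the distributions of the arrays and summarises probes, which can compress differences of dim genes. Symbols came from the platform annotation: 41097 probe sets had 1 symbol, 1801 had several and were left out, and 11777 had none. Symbols were updated through a RefSeq list of genes, and 54 probe sets kept the annotation's symbol. Each of 19775 genes was represented by its probe set with the highest mean over all 12 arrays.

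A model of 4 group means was fitted to all 12 arrays with limma 3.58.1 (lmFit and eBayes, R 4.3.3, 8 residual degrees of freedom), with two-sided tests and Benjamini-Hochberg adjustment over all genes. The differences between lines under TMZ, under DMSO and between both were contrasts of that fit. Tables used data.table (version 1.17.8), Python 3.11.15, pandas 2.3.3, numpy 2.4.6 and matplotlib 3.10.9. The fit was tested on simulated data for all 19775 genes. Of 50 genes with a simulated difference of 0.3, 17 were recovered under TMZ and 6 for the difference between treatments. At 0.6 these counts were 42 and 32, and at 1 they were 50 and 50. Few genes were changed there, so the shares need not hold for the real arrays. With such recovery, 0 called genes does not show that treatments had no difference. The number of arrays limits the precision.

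Named with values were NFKB1, MGMT, the 10 called genes with the largest difference in each direction whose groups do not overlap (Y-linked genes and XIST left out), up to 4 called members of each direction with the smallest p in each of 55 gene lists, and the 10 genes with the smallest p for the difference between treatments. Other list members are given by value. Members and lists were chosen with earlier results of these data known. Promoter windows are from RefSeq (GRCh38.p14). Replicate numbers did not pair the arrays: deviations of same-numbered arrays from their group means correlated at 0.0806, 0.0188 and -0.0400.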

Additional observations from a re-analysis of the deposited data

How the results depend on the processing

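The count of genes called under TMZ was 6317 with each probe set on its own, 1045 with the spike-in level as covariate, 2566 at an adjusted p under 0.01, and 3219 to 3778 when 1 array was left out. The matching counts were 3040, 550, 1265 and 1562 to 1860 for higher genes, and 3277, 495, 1301 and 1657 to 2027 for lower genes. Genes with at least a 2-fold difference numbered 527 with each probe set on its own, 169 with genes below the median level left out, and 348 to 361 without 1 array. Under DMSO the count was 5935, 523 and 2439 in the first 3 settings. The difference between treatments had 8 called genes with genes below the median level left out, 12 with trend and robust fitting and 1 with an ordinary linear model. NFKB1 lost its call with only the 6 TMZ arrays (-0.25, adjusted p = 0.0558), with the spike-in covariate (-0.18, 0.565) and at an adjusted p under 0.01, and ranged from -0.31 to -0.21 without 1 array. The cause of these shifts was not tested. The sign turned with the mean of all probe sets for COL1A2 (-0.0828) and PDE5A (0.0066). The difference of MGMT, not called, turned with array weights (-0.0033), and it ranged from -0.1206 to 0.1256 without 1 array, with -0.0300 without shp105 replicate 1. Of 110 counts of higher or lower genes in the gene groups, 78 moved by over 1.5 times with the spike-in covariate, 34 with genes below the median level left out, 20 with the mean of probe sets and 17 with only the 6 TMZ arrays. Of the 294 other named genes, 139 lost their call with the spike-in covariate, 37 with the mean of probe sets, 39 at an adjusted p under 0.01, 27 with only the 6 TMZ arrays and 16 to 24 without 1 array. With replicate number as a block, 3885 genes were called and 10 named genes lost their call, but the numbers do not pair the arrays. Levels within background limit the folds of genes that were absent in 1 line.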
